A study of Mus musculus with 24 samples.

Results

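The genes described here encode 10 proteins that fold, trim and crosslink collagen in mouse muscle: Serpinh1, P4ha1, P4ha2, Plod1, Plod2, Pcolce, Bmp1, Lox, Loxl1 and Loxl2. Each was found by its symbol as 1 row among the 36172 gene models of the deposited tables, and all 10 passed the filter on low counts that left 13048 genes for testing. RNA sequencing was done on gastrocnemius, the large calf muscle, of C57BL/6 mice, in 24 libraries that form 6 groups of 4. Notch2-mKO mice had the genotype Mlc1fCre/+;Notch2f/f, in which Cre recombinase is expressed from the Mlc1f locus of skeletal muscle fibres and acts on floxed Notch2. WT mice had the genotype Notch2f/f, so the floxed alleles are common to all 6 groups. The Notch2-mKO-Unloading and WT-Unloading groups had their hindlimbs suspended for 7 days. The Notch2-mKO-Diabetes and WT-Diabetes groups were sampled 14 days after 1 intraperitoneal dose of streptozotocin, 150 mg per kg body weight, which destroys insulin-producing cells. Notch2-mKO-Control and WT-Control mice received neither treatment, and the age of the mice is not given in the sources used here. No source ties each library to an animal of its own, and a p-value here reflects only how far libraries of 1 group differ, which may in part be technical.

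Collagen is made as a procollagen chain inside the endoplasmic reticulum, where prolyl and lysyl residues are hydroxylated and chains join into a triple helix held by a dedicated chaperone. Outside the cell the end peptides are cut off, and lysyl oxidases then join the molecules of the growing fibril by covalent crosslinks. In skeletal muscle this work is done mostly by fibroblasts and tendon cells rather than by muscle fibres, and collagen carries force from the fibre to the tendon.

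The libraries held 33112459 to 56369917 estimated counts, and levels are given as CPM, each count relative to the library total after TMM scaling in edgeR. Notch2 itself averaged 1.43 ± 0.122, 1.78 ± 0.470 and 1.87 ± 0.584 CPM in the unloaded, diabetic and control Notch2-mKO groups, against 1.76 ± 0.312, 2.28 ± 0.631 and 1.84 ± 0.0680 CPM in the matching WT groups (SD, n = 4 each), and no genotype comparison of it passed the test. These counts also take in Notch2 of cells without Mlc1f, and the deleted exons are not given, so they do not check the genotype labels. Muscle fibre markers such as Acta1 and Ckm were high throughout, with a summed level of at least 167374 CPM in every library. AT-rich transcripts stood higher relative to GC-rich ones in treated libraries: the difference of their mean log2 levels, each centred over all libraries, was -0.22 to 0.31 in Notch2-mKO-Unloading and -0.02 to 0.33 in Notch2-mKO-Diabetes, against -0.63 to 0.05 in Notch2-mKO-Control. It was 0.38 to 0.55 in WT-Unloading and 0.21 to 0.58 in WT-Diabetes, against -1.02 to -0.20 in WT-Control. Since this moves with treatment, calls are also given after the dependence of each library on transcript GC content and length was removed.

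Both treatments lowered most of the 10 genes in WT muscle, where the lysyl oxidase gene Lox rose, and fewer passed the test in Notch2-mKO muscle. A gene was called when its Benjamini-Hochberg adjusted p over all genes tested was below 0.05 in the quasi-likelihood test of edgeR. In unloaded Notch2-mKO muscle 3 of the 10 fell and none rose, where 7.31% of all genes were called, 3.20% lower and 4.11% higher. In diabetic Notch2-mKO muscle 3 fell and none rose, where 5.59% of all genes were called, 2.54% lower and 3.05% higher. In unloaded WT muscle 8 of the 10 fell and 1 rose, where 34.7% of all genes were called, 16.3% lower and 18.4% higher. In diabetic WT muscle 8 again fell and 1 rose, where 33.4% of all genes were called, 15.5% lower and 17.8% higher. The median log2 fold change of the 10 was -0.47 after unloading and -0.41 in diabetes in Notch2-mKO muscle, and -0.79 and -0.70 in WT muscle, while the median of all genes lay between -0.02 and 0.02. The 2 comparisons of a genotype share its 4 control libraries. Each value comes from whole muscle, in which fewer cells of a type and less RNA per cell cannot be told apart. Summed over the 10 genes, the level was 155 to 194 CPM in Notch2-mKO-Unloading and 149 to 178 CPM in Notch2-mKO-Diabetes, against 215 to 265 CPM in Notch2-mKO-Control. It was 122 to 170 CPM in WT-Unloading and 133 to 168 CPM in WT-Diabetes, against 268 to 312 CPM in WT-Control, so treated and control libraries did not overlap in either genotype. This sum mostly reflects the abundant genes. Of a mean of 287 CPM in WT-Control, Serpinh1 gave 75.7, Pcolce 46.6, P4ha1 43.7 and Plod1 41.8, but Lox 2.30 and Plod2 0.610. Gene by gene, 3 of the 10 had all unloaded libraries below all controls in Notch2-mKO muscle, where 6.23% of all genes did, and 7 in diabetes, where 9.18% did. All libraries stood above the controls for none of the 10 after unloading and for Lox in diabetes, where 6.41% and 8.65% of all genes did. In WT muscle 8 did so after unloading and 7 in diabetes, where 16.0% and 14.1% of all genes did, and Lox stood above the controls both times, where 17.3% and 15.9% did.

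**Figure D1:**
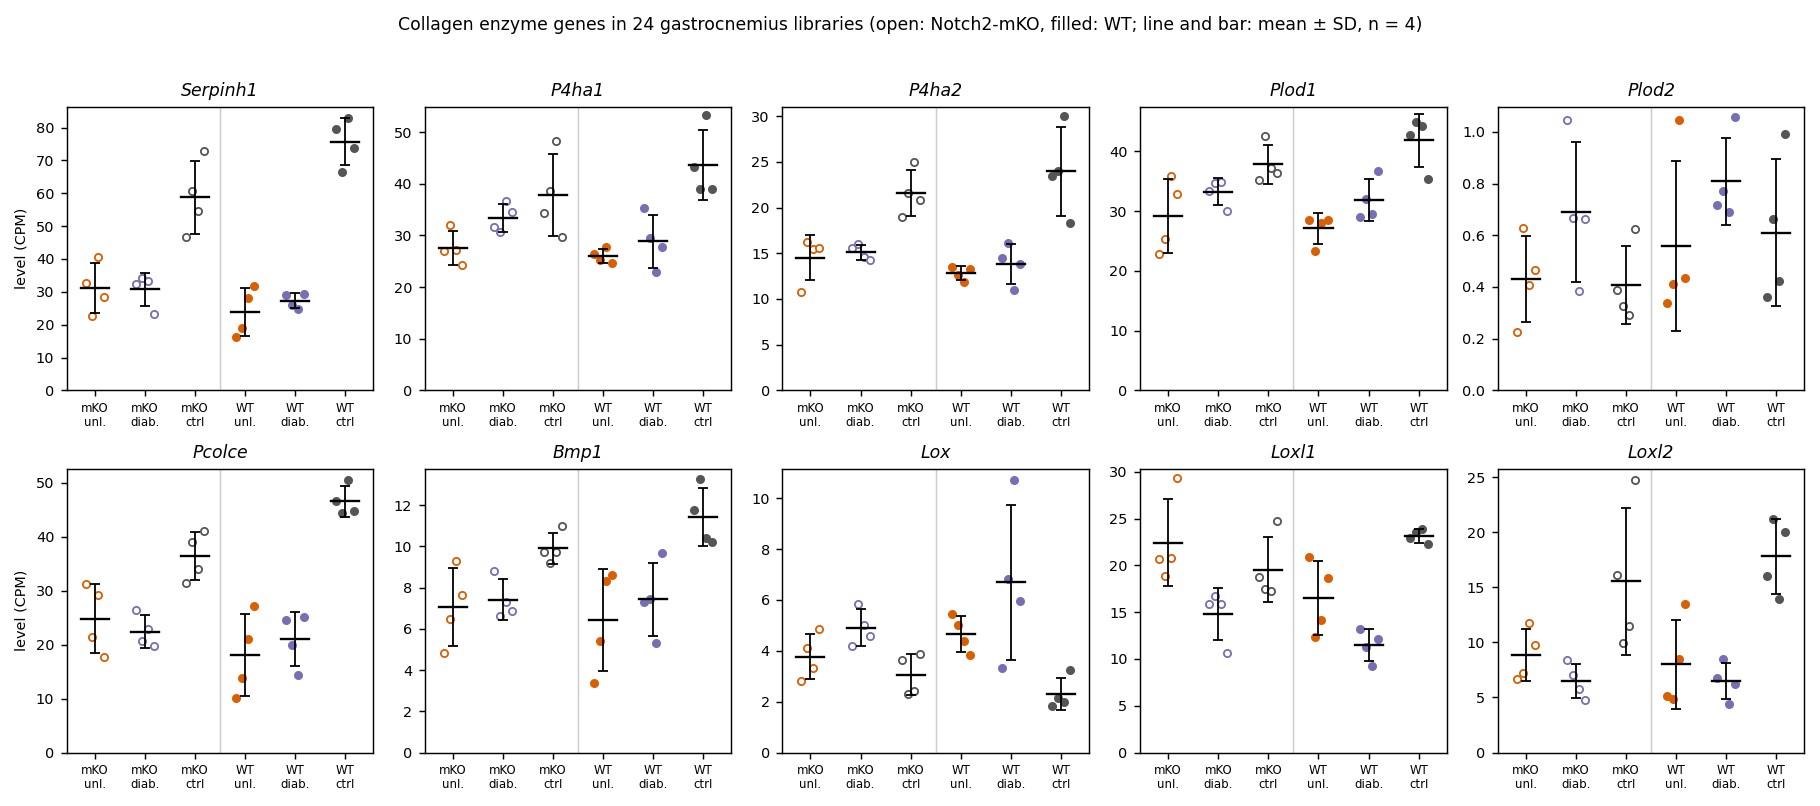
Level of each of the 10 genes in CPM (vertical axes, from 0) in every library, for Notch2-mKO (open points) and WT (filled points) muscle after unloading (unl.), in diabetes (diab.) and in controls (ctrl); lines and bars are the mean ± SD of 4 libraries. Serpinh1 stood at 16.3 to 40.7 CPM in all treated libraries and at 46.6 to 83.0 CPM in all controls, while the mean of Lox was lowest in WT-Control.

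**Figure D2:**
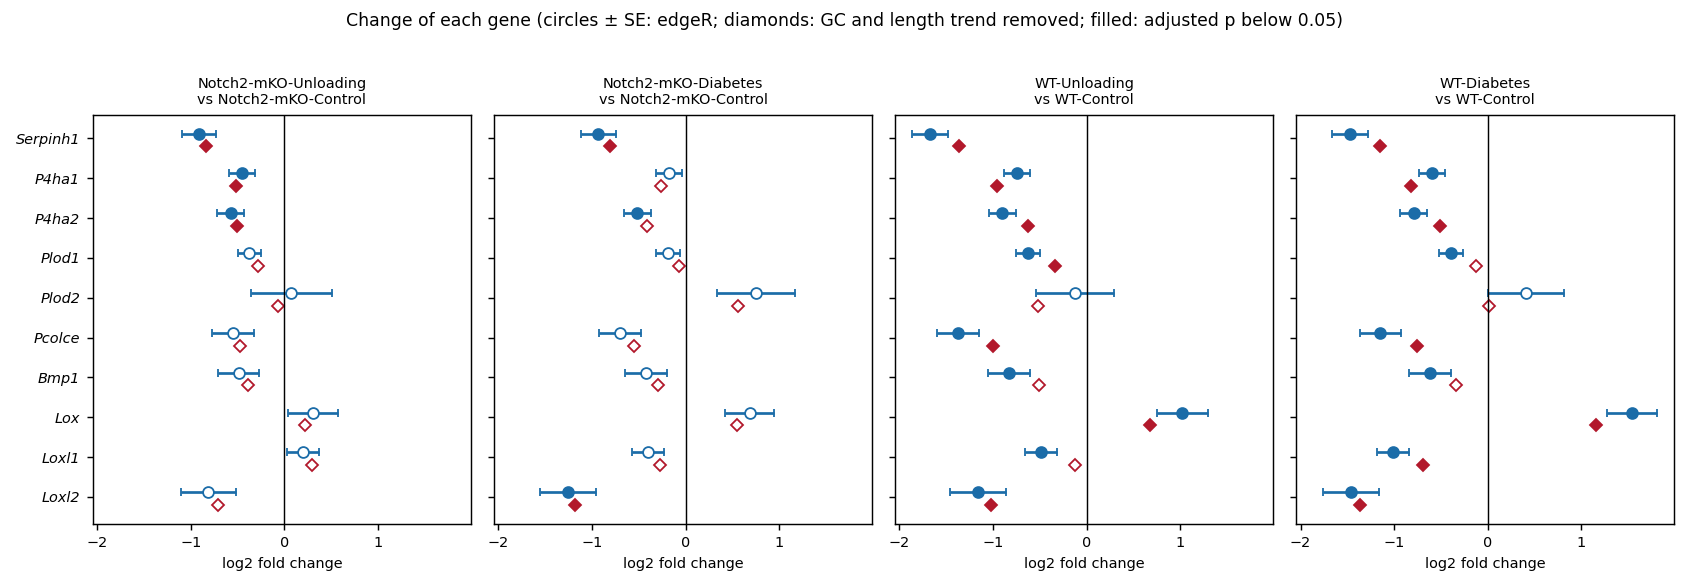
Log2 fold change of each gene against the controls of its genotype (horizontal axis), 1 panel per comparison, with the standard error of the edgeR fit as circles and bars and the value after removal of the GC and length trend as diamonds; filled symbols have an adjusted p below 0.05. Serpinh1 is filled in all 4 panels by both fits, and Lox lies right of 0 in all 4 but is filled in the WT panels only.

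With the GC and length trend removed, 3 genes were called lower after unloading and 2 in diabetes in Notch2-mKO muscle, where 8.40% of all genes were called after unloading (3.33% lower, 5.07% higher) and 4.56% in diabetes (2.04% lower, 2.52% higher). In WT muscle 6 were then lower and 1 higher in each treatment, where 26.6% of all genes were called after unloading (10.8% lower, 15.8% higher) and 23.9% in diabetes (9.73% lower, 14.2% higher). The genes that lost their call were P4ha2 in diabetic Notch2-mKO muscle, Bmp1 and Loxl1 in unloaded WT muscle, and Bmp1 and Plod1 in diabetic WT muscle. The counts in Notch2-mKO muscle also varied with the fit: edgeR on only the groups compared called 1 gene after unloading and 6 in diabetes, DESeq2 called 5 and 4, and limma on the authors' log2 values called 0 and 3. The calls over all genes varied too. Only the groups compared gave 331 of 12451 genes after unloading and 1592 of 12419 in diabetes. DESeq2 gave 1410 and 1127 of 13046, and limma gave 1 and 1252 of 13048.

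Serpinh1 (gene 12406, chromosome 7, 99345375 to 99353239 in GRCm38, the assembly of mm10) encodes HSP47, the chaperone that binds the folded collagen triple helix. It had the lowest adjusted p of the 10 genes in all 4 treatment comparisons. Its level was 32.8, 22.8, 40.7 and 28.4 CPM in Notch2-mKO-Unloading and 32.4, 34.1, 33.3 and 23.4 CPM in Notch2-mKO-Diabetes, against 46.6, 60.8, 54.7 and 72.8 CPM in Notch2-mKO-Control. It was 16.3, 19.0, 28.1 and 31.7 CPM in WT-Unloading and 29.2, 25.8, 24.9 and 29.3 CPM in WT-Diabetes, against 79.6, 66.6, 83.0 and 73.8 CPM in WT-Control. Every treated library lay below every control library of its genotype. Serpinh1 was 1.88-fold lower after unloading (log2 -0.91, SE 0.19, adjusted p = 0.00662) and 1.91-fold lower in diabetes (-0.93, SE 0.19, adjusted p = 0.00807) in Notch2-mKO muscle. In WT muscle it was 3.19-fold lower after unloading (-1.67, SE 0.19, adjusted p = 1.68e-06) and 2.77-fold lower in diabetes (-1.47, SE 0.19, adjusted p = 7.95e-06). These calls held whichever library was left out, but limma on the authors' log2 values gave -0.79 and an adjusted p of 0.199 in unloaded Notch2-mKO muscle.

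P4ha1 (gene 18451, chromosome 10, 59323197 to 59373304) and P4ha2 (gene 18452, chromosome 11, 54100924 to 54131668) encode the catalytic subunits of prolyl 4-hydroxylase, whose product hydroxyproline makes the triple helix stable at body temperature. P4ha2 stood at 10.8, 16.3, 15.5 and 15.6 CPM in Notch2-mKO-Unloading and 15.6, 16.0, 14.5 and 14.3 CPM in Notch2-mKO-Diabetes, against 19.0, 21.7, 25.0 and 20.8 CPM in Notch2-mKO-Control. It stood at 13.6, 12.6, 11.9 and 13.3 CPM in WT-Unloading and 14.5, 16.2, 11.0 and 13.8 CPM in WT-Diabetes, against 23.4, 24.04, 30.1 and 18.3 CPM in WT-Control. Treated and control libraries were apart in both genotypes, and P4ha2 was called lower in all 4 comparisons. Its log2 fold change was -0.57 (SE 0.14, adjusted p = 0.0188) after unloading and -0.52 (SE 0.14, adjusted p = 0.0359) in diabetes in Notch2-mKO muscle. In WT muscle it was -0.90 (SE 0.14, adjusted p = 4.52e-05) and -0.79 (SE 0.14, adjusted p = 0.000207). The Notch2-mKO calls of P4ha2 were weak: the one in diabetes was lost in 7 of the 8 fits that left out 1 library, all but that without Notch2-mKO-Control replicate 1, at an adjusted p of up to 0.111. The one after unloading was lost without Notch2-mKO-Control replicate 3 (adjusted p = 0.0560) or Notch2-mKO-Unloading replicate 1 (adjusted p = 0.0535).

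P4ha1 had 26.9, 32.0, 27.1 and 24.2 CPM in Notch2-mKO-Unloading and 31.6, 30.7, 36.6 and 34.5 CPM in Notch2-mKO-Diabetes, against 34.4, 38.6, 48.3 and 29.7 CPM in Notch2-mKO-Control. It had 26.3, 25.2, 27.8 and 24.7 CPM in WT-Unloading and 35.3, 29.4, 22.8 and 27.8 CPM in WT-Diabetes, against 43.3, 39.1, 53.4 and 38.9 CPM in WT-Control. The groups overlapped in Notch2-mKO muscle and not in WT muscle. P4ha1 fell by 0.45 on the log2 scale after unloading in Notch2-mKO muscle (SE 0.14, adjusted p = 0.0483), a call lost when Notch2-mKO-Control replicate 2 or 3 or Notch2-mKO-Unloading replicate 1, 3 or 4 was left out (adjusted p 0.0745 to 0.171). Its value in diabetic Notch2-mKO muscle was -0.18 (SE 0.14, adjusted p = 0.481). In WT muscle P4ha1 fell by 0.75 after unloading (adjusted p = 0.000251) and by 0.60 in diabetes (SE 0.14 each, adjusted p = 0.00202). Per kilobase of transcript, P4ha2 made up 41.7 to 53.4% of the P4ha1 and P4ha2 transcripts in Notch2-mKO-Unloading, 41.5 to 48.2% in Notch2-mKO-Diabetes and 48.0 to 55.6% in Notch2-mKO-Control. The same share was 43.2 to 49.1% in WT-Unloading, 42.2 to 49.6% in WT-Diabetes and 45.6 to 52.4% in WT-Control. The share overlapped that of the controls in each comparison, in diabetic Notch2-mKO muscle by little (44.8 ± 3.23% against 50.8 ± 3.28% in controls, SD, n = 4 each).

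The promoter windows of Serpinh1, P4ha1 and P4ha2 are shown because these genes were called lower together in 3 of the treatment comparisons. Their products all act in the endoplasmic reticulum. The sequences are from RefSeq on GRCm38.p6 and run from 250 bases before a start site to 50 bases after it, 5′ to 3′ on the gene's strand. That start is the edge of the gene span given here for Serpinh1, P4ha2 and Plod1, but lies inside the span for P4ha1 and Pcolce. Windows of this kind were at hand for 5 of the 10 genes, Plod1 and Pcolce being the others. Capitals mark matches on either strand to GGGCGG (the GC box), ACGTG or GCGTG (the core of the hypoxia response element) and GAANNTTC (a pair of heat shock factor half-sites).
Serpinh1, chr7:99353190-99353489, minus strand: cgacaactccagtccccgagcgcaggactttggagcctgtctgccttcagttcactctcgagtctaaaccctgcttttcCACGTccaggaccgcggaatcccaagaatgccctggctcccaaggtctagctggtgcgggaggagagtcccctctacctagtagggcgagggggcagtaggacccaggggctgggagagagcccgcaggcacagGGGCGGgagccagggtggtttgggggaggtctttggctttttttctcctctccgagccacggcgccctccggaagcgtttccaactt
P4ha1, chr10:59323046-59323345, plus strand: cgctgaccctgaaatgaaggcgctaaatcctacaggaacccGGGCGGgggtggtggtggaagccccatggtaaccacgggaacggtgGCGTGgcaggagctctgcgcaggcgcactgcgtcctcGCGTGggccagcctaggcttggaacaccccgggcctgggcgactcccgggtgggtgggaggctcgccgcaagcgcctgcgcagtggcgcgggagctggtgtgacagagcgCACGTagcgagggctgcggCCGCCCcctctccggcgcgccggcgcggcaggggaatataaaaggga
P4ha2, chr11:54100674-54100973, plus strand: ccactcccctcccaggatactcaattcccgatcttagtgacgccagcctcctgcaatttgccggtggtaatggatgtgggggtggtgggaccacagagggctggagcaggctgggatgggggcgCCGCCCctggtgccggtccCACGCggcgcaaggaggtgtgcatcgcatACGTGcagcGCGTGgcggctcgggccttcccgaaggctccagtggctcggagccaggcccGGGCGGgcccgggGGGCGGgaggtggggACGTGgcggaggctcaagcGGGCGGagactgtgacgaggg
P4ha2 held 4 GC boxes and 4 hypoxia cores, P4ha1 held 2 and 3, and Serpinh1 held 1 of each. Plod1 held 3 GC boxes, 2 hypoxia cores and 1 heat shock pair, and Pcolce held 1 GC box and 1 hypoxia core. Among 32851 windows of the same length, 35.7% had a GC box, 43.8% had either hypoxia core and 7.86% had the heat shock pair, so the first 2 motifs are common in promoters. A match describes letters only and says nothing of binding by a factor.

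Plod1 (gene 18822, chromosome 4, 147909753 to 147936776) and Plod2 (gene 26432, chromosome 9, 92539636 to 92608428) encode lysyl hydroxylases: the Plod1 enzyme acts mainly on the helical part of collagen, and the Plod2 enzyme on the end peptides, where its product favours stable crosslinks. Plod1 stood at 22.7, 25.3, 35.8 and 32.8 CPM in Notch2-mKO-Unloading and 33.3, 34.7, 34.8 and 30.0 CPM in Notch2-mKO-Diabetes, against 35.2, 42.5, 37.1 and 36.3 CPM in Notch2-mKO-Control. It stood at 28.5, 23.3, 28.05 and 28.6 CPM in WT-Unloading and 29.1, 32.0, 29.5 and 36.8 CPM in WT-Diabetes, against 42.8, 45.0, 44.3 and 35.3 CPM in WT-Control. The libraries of unloaded and control WT muscle were apart, while 1 diabetic WT library lay above the lowest WT control. In Notch2-mKO muscle the diabetic libraries lay below all controls, the highest by little, and the unloaded ones overlapped them. Plod1 fell by 0.63 on the log2 scale after unloading in WT muscle (SE 0.13, adjusted p = 0.000480). In diabetic WT muscle it fell by 0.40 (SE 0.13, adjusted p = 0.0178), a call lost without WT-Control replicate 2 (adjusted p = 0.0503) or WT-Diabetes replicate 3 (adjusted p = 0.0551). In Notch2-mKO muscle the log2 values were -0.37 after unloading (adjusted p = 0.0669) and -0.19 in diabetes (SE 0.13 each, adjusted p = 0.406). The first of them passed without Notch2-mKO-Unloading replicate 3, at -0.49 and an adjusted p of 0.0239.

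Plod2 was scarce, with 10 to 58.9 estimated counts a library. Its level was 0.226 to 0.626 CPM in Notch2-mKO-Unloading and 0.383 to 1.04 CPM in Notch2-mKO-Diabetes, against 0.291 to 0.626 CPM in Notch2-mKO-Control. It was 0.339 to 1.05 CPM in WT-Unloading and 0.690 to 1.06 CPM in WT-Diabetes, against 0.360 to 0.990 CPM in WT-Control, and the groups overlapped in every comparison. Plod2 passed the test in none of the 4 treatment comparisons, with SEs of 0.41 to 0.43 on the log2 scale, so a change of the size seen in Plod1 was not detectable at this depth. Per kilobase, Plod2 made up at most 3.20% of the Plod1 and Plod2 transcripts of any library.

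Pcolce (gene 18542, chromosome 5, 137605105 to 137611522) encodes the enhancer that binds procollagen and speeds the removal of its C-terminal propeptide. The protease that makes this cut is encoded by Bmp1 (gene 12153, chromosome 14, 70474555 to 70520716). Pcolce stood at 31.2, 21.4, 29.1 and 17.7 CPM in Notch2-mKO-Unloading and 26.5, 20.6, 22.8 and 19.7 CPM in Notch2-mKO-Diabetes, against 31.4, 39.1, 34.0 and 41.1 CPM in Notch2-mKO-Control. It stood at 10.1, 13.9, 21.0 and 27.2 CPM in WT-Unloading and 24.7, 19.9, 14.4 and 25.1 CPM in WT-Diabetes, against 46.6, 44.4, 50.6 and 44.7 CPM in WT-Control. Treated and control libraries did not overlap in any of the 4 comparisons, although the highest unloaded Notch2-mKO library came within a fraction of a CPM of the lowest Notch2-mKO control. Pcolce was 2.59-fold lower after unloading (log2 -1.37, SE 0.22, adjusted p = 5.93e-05) and 2.21-fold lower in diabetes (-1.15, SE 0.22, adjusted p = 0.000392) in WT muscle. In Notch2-mKO muscle its log2 values were -0.55 after unloading (SE 0.22, adjusted p = 0.121) and -0.70 in diabetes (SE 0.22, adjusted p = 0.0614), neither of which passed in edgeR. The value in diabetes passed in DESeq2 (adjusted p = 0.0307).

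Bmp1 was less abundant. It stood at 4.83, 6.47, 9.28 and 7.65 CPM in Notch2-mKO-Unloading and 8.83, 6.64, 7.31 and 6.87 CPM in Notch2-mKO-Diabetes, against 9.75, 9.21, 9.71 and 11.0 CPM in Notch2-mKO-Control. It stood at 3.39, 5.40, 8.33 and 8.60 CPM in WT-Unloading and 7.32, 7.47, 5.33 and 9.66 CPM in WT-Diabetes, against 11.8, 13.3, 10.4 and 10.2 CPM in WT-Control. Every treated WT library was below every WT control. In Notch2-mKO muscle the diabetic libraries were below all controls, and the unloaded ones overlapped them. In WT muscle Bmp1 fell by 0.83 after unloading (SE 0.22, adjusted p = 0.00550) and by 0.62 in diabetes (SE 0.22, adjusted p = 0.0343). The diabetes call was lost without WT-Control replicate 1 or 2 or WT-Diabetes replicate 1, 2 or 3 (adjusted p 0.0588 to 0.127). With the trend removed Bmp1 stood at -0.51 after unloading (adjusted p = 0.0822) and at -0.34 in diabetes (adjusted p = 0.268). Its values in Notch2-mKO muscle were -0.49 after unloading (adjusted p = 0.172) and -0.42 in diabetes (adjusted p = 0.273).

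Lox (gene 16948, chromosome 18, 52516060 to 52529867) encodes lysyl oxidase, the copper enzyme that oxidises lysines of collagen and elastin so that crosslinks form. Loxl1 (gene 16949, chromosome 9, 58287723 to 58313212) encodes a relative best known for elastic fibres, and Loxl2 (gene 94352, chromosome 14, 69608692 to 69695834) one that acts on basement membrane collagen IV. These 3 related genes went in different directions. Lox was at 2.82, 4.10, 3.32 and 4.85 CPM in Notch2-mKO-Unloading and 4.20, 5.85, 5.03 and 4.58 CPM in Notch2-mKO-Diabetes, against 3.64, 2.30, 2.42 and 3.86 CPM in Notch2-mKO-Control. It was at 5.45, 5.01, 4.40 and 3.82 CPM in WT-Unloading and 3.31, 6.81, 10.7 and 5.96 CPM in WT-Diabetes, against 1.83, 2.16, 1.98 and 3.25 CPM in WT-Control. All treated WT libraries were above all WT controls, the lowest diabetic one by little. Lox rose 2.03-fold after unloading (log2 1.02, SE 0.27, adjusted p = 0.00464) and 2.91-fold in diabetes (1.54, SE 0.27, adjusted p = 0.000142) in WT muscle, and both calls held whichever library was left out. In Notch2-mKO muscle its log2 values were 0.31 after unloading (SE 0.26, adjusted p = 0.503), where the libraries overlapped, and 0.69 in diabetes (SE 0.26, adjusted p = 0.117), where they did not. Lox transcripts are 43.9% GC, among the most AT-rich of the 10, and with the trend removed its WT values were 0.67 after unloading (adjusted p = 0.0448) and 1.16 in diabetes (adjusted p = 0.00142).

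Loxl2 was at 6.68, 7.20, 11.7 and 9.77 CPM in Notch2-mKO-Unloading and 8.37, 7.01, 5.77 and 4.80 CPM in Notch2-mKO-Diabetes, against 16.1, 9.91, 11.5 and 24.7 CPM in Notch2-mKO-Control. It was at 5.15, 4.89, 8.46 and 13.5 CPM in WT-Unloading and 6.77, 8.47, 4.43 and 6.26 CPM in WT-Diabetes, against 16.1, 21.2, 14.0 and 19.98 CPM in WT-Control. Only the unloaded Notch2-mKO libraries overlapped their controls, among which replicate 4 was the highest of the 24 libraries. Loxl2 was 2.39-fold lower in diabetic Notch2-mKO muscle (log2 -1.26, SE 0.30, adjusted p = 0.0175). That call was lost without Notch2-mKO-Control replicate 4 (log2 -0.94, adjusted p = 0.0974) or without Notch2-mKO-Diabetes replicate 3 (adjusted p = 0.0545) or 4 (adjusted p = 0.0755). In unloaded Notch2-mKO muscle the log2 value was -0.81 (SE 0.29, adjusted p = 0.0839). In WT muscle Loxl2 was 2.24-fold lower after unloading (-1.16, SE 0.30, adjusted p = 0.00356) and 2.75-fold lower in diabetes (-1.46, SE 0.30, adjusted p = 0.000611).

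Loxl1 had the lowest adjusted p of the 10 genes when diabetes was set against unloading, in both genotypes. It was at 20.7, 18.9, 20.8 and 29.3 CPM in Notch2-mKO-Unloading and 15.9, 16.7, 15.9 and 10.6 CPM in Notch2-mKO-Diabetes, against 18.8, 17.5, 17.3 and 24.7 CPM in Notch2-mKO-Control. It was at 20.9, 12.3, 14.2 and 18.7 CPM in WT-Unloading and 13.2, 11.3, 9.24 and 12.2 CPM in WT-Diabetes, against 23.0, 23.6, 23.9 and 22.2 CPM in WT-Control. Diabetic libraries were below the controls of their genotype, and unloaded Notch2-mKO libraries overlapped theirs. In WT muscle Loxl1 fell by 1.01 in diabetes (SE 0.17, adjusted p = 0.000118) and by 0.49 after unloading (SE 0.17, adjusted p = 0.0288). The unloading call was lost without WT-Control replicate 3 (adjusted p = 0.0509), WT-Unloading replicate 2 (adjusted p = 0.120) or replicate 3 (adjusted p = 0.0872), and with the trend removed the value was -0.12 (adjusted p = 0.606), Loxl1 being the most GC-rich of the 10 at 61.0%. In Notch2-mKO muscle the values were 0.20 after unloading (adjusted p = 0.502) and -0.40 in diabetes (adjusted p = 0.160). Set directly against unloading, diabetes gave -0.60 in Notch2-mKO muscle (SE 0.17, adjusted p = 0.0537) and -0.52 in WT muscle (SE 0.17, adjusted p = 0.0945). None of the 10 genes was called between the treatments, where 3.07% of all genes were called in Notch2-mKO and 3.56% in WT muscle. With the trend removed Loxl1 was called lower in diabetes in both genotypes (-0.56, adjusted p = 0.0460 in Notch2-mKO, and -0.57, adjusted p = 0.0386 in WT), where 3.36% and 4.25% of all genes were called.

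The make-up of the lysyl oxidase transcripts shifted with these changes. Per kilobase of transcript, Lox was 7.32, 10.9, 7.59 and 8.71% of the sum of Lox, Loxl1 and Loxl2 in Notch2-mKO-Unloading and 12.2, 16.2, 15.2 and 19.0% in Notch2-mKO-Diabetes, against 8.09, 6.34, 6.45 and 6.28% in Notch2-mKO-Control. The share was 13.6, 18.5, 13.6 and 8.95% in WT-Unloading and 11.7, 22.2, 38.3 and 20.5% in WT-Diabetes, against 3.72, 3.93, 4.06 and 6.12% in WT-Control. Only the unloaded Notch2-mKO libraries overlapped their controls. Because the share is built from genes already compared above, it was given no test of its own. Lox transcripts are 43.9% GC and those of Loxl1 61.0%, so the share can move with the GC trend of the libraries. That trend was not removed from it, and its part in the shift was not tested.

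**Figure D3:**
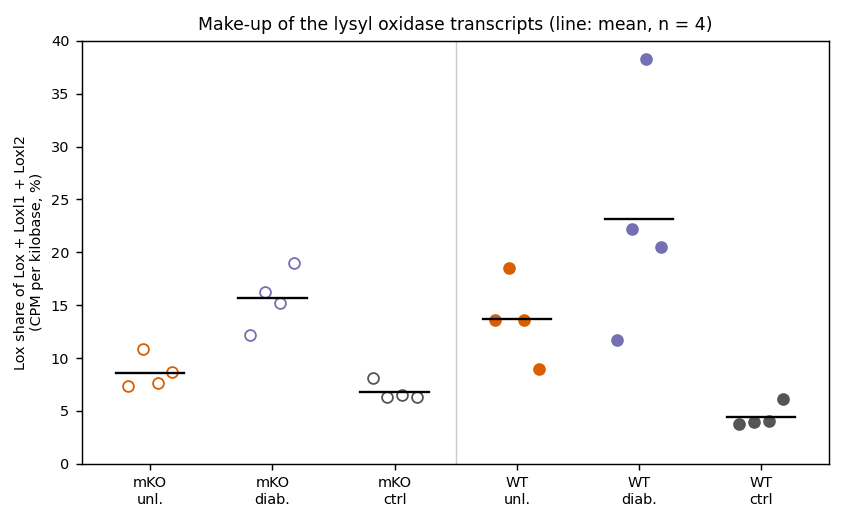
Share of Lox in the summed Lox, Loxl1 and Loxl2 level per kilobase of transcript (vertical axis, %), in every library of the 6 groups, with the group mean as a line; open points are Notch2-mKO and filled points WT. Diabetic libraries range from 11.7 to 38.3%, above every control library, of which the highest is at 8.09%. The GC and length trend was not removed from these shares.

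In control WT muscle, the level per kilobase was highest for Serpinh1 (33.3 ± 3.16 CPM per kilobase) and Pcolce (28.6 ± 1.75), followed by Plod1 (12.9 ± 1.37), P4ha1 (10.8 ± 1.68) and P4ha2 (10.6 ± 2.13), then Loxl1 (7.03 ± 0.221), Loxl2 (3.35 ± 0.633), Bmp1 (3.10 ± 0.383), Lox (0.486 ± 0.136) and Plod2 (0.166 ± 0.0779; SD, n = 4). The libraries of Serpinh1 and Pcolce overlapped, as did those of Plod1, P4ha1 and P4ha2, and those of Loxl2 and Bmp1. Among the 6 groups, Serpinh1, P4ha1, P4ha2, Plod1, Pcolce and Bmp1 each had their highest mean in WT-Control, the next in Notch2-mKO-Control and the lowest in WT-Unloading. Neighbouring groups in that order overlapped except at 1 step for Serpinh1, P4ha2 and Plod1, where the controls began, and at 2 steps for Pcolce. Lox ran the other way, from 2.30 ± 0.643 CPM in WT-Control to 6.69 ± 3.05 CPM in WT-Diabetes, with every pair of neighbouring groups overlapping.

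Whether Notch2 deletion in fibres changed these genes was tested within each condition. None of the 10 was called between Notch2-mKO and WT muscle in controls, after unloading or in diabetes, and 0% of all genes were called by edgeR in each comparison. At an unadjusted p below 0.05 the 10 genes gave 3 differences after unloading, 1 in diabetes and 0 in controls, while 1345, 692 and 695 of all 13048 genes passed that mark. DESeq2 called none of the 10 either. In controls Pcolce was at 31.4 to 41.1 CPM in Notch2-mKO muscle and 44.4 to 50.6 CPM in WT muscle, without overlap (log2 -0.36, SE 0.22, adjusted p = 0.893), and no other of the 10 was apart, where 1.20% of all genes were apart and lower and 1.58% apart and higher. After unloading and in diabetes none of the 10 was apart between genotypes, where 2.64% and 1.78% of all genes were apart and higher and 3.70% and 1.79% apart and lower.

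The responses of the 2 genotypes were then compared as an interaction. The interactions for unloading and for diabetes rest on the same 8 control libraries. None of the 10 genes was called in either, as was none of all genes (0%). The largest differences in the unloading response were 0.82 for Pcolce (SE 0.31, adjusted p = 0.240), 0.76 for Serpinh1 (SE 0.26, adjusted p = 0.200), 0.69 for Loxl1 (SE 0.24, adjusted p = 0.205) and -0.72 for Lox (SE 0.38, adjusted p = 0.393). In diabetes they were 0.61 for Loxl1 (SE 0.24, adjusted p = 0.506), 0.54 for Serpinh1 (SE 0.26, adjusted p = 0.566) and -0.85 for Lox (SE 0.37, adjusted p = 0.547). After removal of the GC and length trend, the unloading values were 0.53 for Pcolce and Serpinh1, 0.42 for Loxl1 and -0.45 for Lox. The diabetes values were then 0.42 for Loxl1, 0.35 for Serpinh1 and -0.61 for Lox. Those of P4ha1 grew instead, from 0.29 to 0.45 for unloading and from 0.42 to 0.56 for diabetes. Those of Plod2 also grew, from 0.20 to 0.46 and from 0.35 to 0.55. An unadjusted p below 0.05 was reached by 3 of the 10 for unloading, where 1875 of all genes reached it, and by 4 of the 10 for diabetes, where 1142 did. DESeq2 called 119 and 3 genes in these interactions, none of them among the 10. Leaving out WT-Control replicate 4, the WT control least shifted toward GC-rich transcripts, edgeR called 427 genes for unloading and 62 for diabetes, again none of the 10. Thus more calls in WT than in Notch2-mKO muscle do not show that the responses differ.

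The collagen chains on which these enzymes act fell in both treatments, with lower medians than the enzyme genes. Of all genes, 3.20% were called lower after unloading and 2.54% in diabetes in Notch2-mKO muscle, and 16.3% and 15.5% in WT muscle. Of 8 fibrillar chain genes, 3 fell after unloading and 7 in diabetes in Notch2-mKO muscle, and 7 fell in each treatment in WT muscle, with medians of -1.29, -1.82, -1.75 and -2.15 in the same order. Col1a1, the α1 chain of type I collagen, fell to 52.8 CPM in unloaded and 37.7 CPM in diabetic Notch2-mKO muscle, against 166 CPM in controls (log2 -1.65 and -2.14, adjusted p = 0.0207 and 0.00848). In WT muscle it fell to 42.4 CPM after unloading and 35.4 CPM in diabetes, against 225 CPM in controls (log2 -2.41 and -2.67, adjusted p = 0.000158 and 8.26e-05). Col1a2, its partner chain, fell by 1.40 and 1.84 in Notch2-mKO muscle (adjusted p = 0.0206 and 0.00705) and by 2.07 and 2.15 in WT muscle (adjusted p = 0.000125 and 0.000113), unloading first. Col3a1, the chain of type III collagen, fell by 1.80 in diabetic Notch2-mKO muscle (adjusted p = 0.0368) and by 1.62 and 2.14 in unloaded and diabetic WT muscle (adjusted p = 0.0138 and 0.00217). With the GC and length trend removed, 3 and 6 of the fibrillar chain genes fell in Notch2-mKO muscle and 7 and 7 in WT muscle. Of all genes, 3.33% and 2.04% were then called lower in Notch2-mKO muscle and 10.8% and 9.73% in WT muscle. Of 9 non-fibrillar chain genes, 6 fell after unloading and 7 in diabetes in Notch2-mKO muscle, and 9 and 7 in WT muscle. With the trend removed, 3 and 6 of these 9 fell in Notch2-mKO muscle and 8 and 7 in WT muscle. Among them Col4a1, a basement membrane chain, fell by 1.02 and 1.07 in unloaded and diabetic Notch2-mKO muscle (adjusted p = 0.0130 and 0.0143) and by 1.42 and 1.39 in WT muscle (adjusted p = 8.4e-05 and 0.000141).

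Other genes of collagen synthesis did not follow as one. Of 26 tested genes of a wider list of 30, 0 were called after unloading in Notch2-mKO muscle, 1 fell and 3 rose in diabetic Notch2-mKO muscle, 10 fell and 3 rose after unloading in WT muscle, and 5 fell and 4 rose in diabetic WT muscle. Their medians were -0.13, -0.04, -0.28 and 0.09. With the GC and length trend removed, 5 fell and 4 rose in unloaded and 3 fell and 6 rose in diabetic WT muscle. In Notch2-mKO muscle 0 were then called after unloading, and 1 fell and 2 rose in diabetes. That fit called 10.8% of all genes lower and 15.8% higher in unloaded WT muscle, and 9.73% and 14.2% in diabetic WT muscle. In Notch2-mKO muscle it called 3.33% lower and 5.07% higher after unloading, and 2.04% and 2.52% in diabetes. The reported fit over all genes called 3.20% lower and 4.11% higher after unloading and 2.54% and 3.05% in diabetes in Notch2-mKO muscle. Over all genes in WT muscle, it called 16.3% lower and 18.4% higher after unloading, and 15.5% and 17.8% in diabetes. In unloaded WT muscle the falls included Fkbp10, a prolyl isomerase that works with Serpinh1 (-1.04, adjusted p = 0.000296), Plod3, the third lysyl hydroxylase (-0.57, adjusted p = 0.000947), and P3h2, a prolyl 3-hydroxylase (-1.17, adjusted p = 0.00105). The rises there were Mia3 (0.62, adjusted p = 0.000250) and Sec23a (0.42, adjusted p = 0.000466), both parts of the machinery that carries procollagen out of the endoplasmic reticulum, and Tmem38b, an ion channel of that organelle (0.86, adjusted p = 0.000916). In diabetic WT muscle Creb3l1, a transcription factor of collagen-secreting cells, fell by 1.84 (adjusted p = 0.000293), Adamts2, the N-propeptidase, by 0.91 (adjusted p = 0.00145), and Loxl3, another lysyl oxidase, by 0.64 (adjusted p = 0.0162). Sec23a (0.63), Tmem38b (0.88) and the proprotein convertase gene Furin (0.63) rose there (adjusted p = 1.37e-05, 0.000843 and 0.0100). In diabetic Notch2-mKO muscle Creb3l1 fell by 1.72 (adjusted p = 0.00857), while P3h2 (0.89), Sec23a (0.30) and P3h4 (0.56), an endoplasmic reticulum protein related to the prolyl 3-hydroxylases, rose (adjusted p = 0.0356, 0.0401 and 0.0433).

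**Figure D4:**
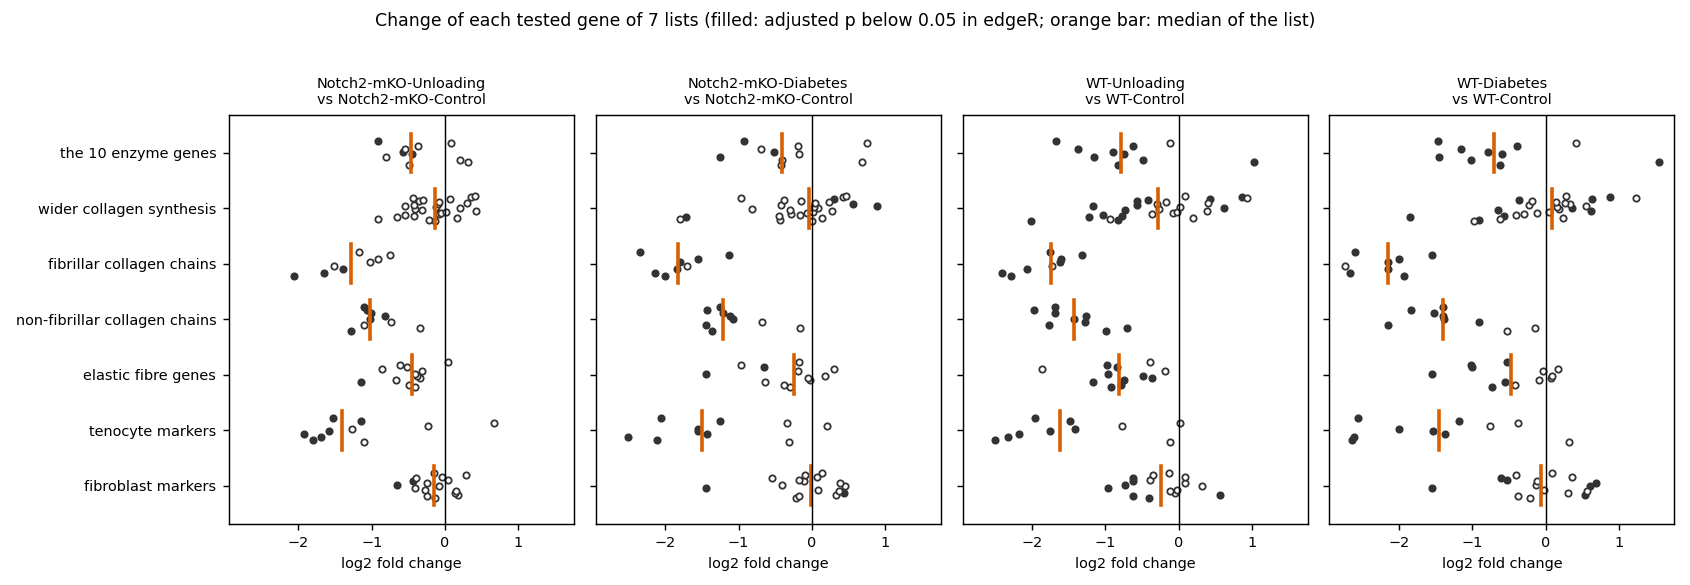
Log2 fold change (horizontal axis) of each tested gene of 7 lists in the 4 treatment comparisons, filled where the adjusted p of edgeR is below 0.05, with the median of each list as an orange bar. The fibrillar chains have medians of -1.29 to -2.15, below those of the 10 enzyme genes (-0.41 to -0.79), while fibroblast markers have medians of -0.24 to -0.01.

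Among 12 tested elastic fibre genes, which include the substrates of Lox and Loxl1, none rose in the reported fit. In Notch2-mKO muscle 1 fell after unloading and 2 in diabetes, and in WT muscle 9 and 6 fell. With the GC and length trend removed, 1 fell in each treatment in Notch2-mKO muscle. In WT muscle 4 then fell after unloading, and 3 fell and 1 rose in diabetes. Over all genes the reported fit called 3.20% lower and 4.11% higher after unloading and 2.54% and 3.05% in diabetes in Notch2-mKO muscle. In WT muscle it called 16.3% lower and 18.4% higher, and 15.5% and 17.8%. With the trend removed, 10.8% were lower and 15.8% higher after unloading, and 9.73% and 14.2% in diabetes, in WT muscle. In Notch2-mKO muscle 3.33% were then lower and 5.07% higher after unloading, and 2.04% and 2.52% in diabetes. P4ha1, P4ha2, Plod2 and Lox are known targets of hypoxia-inducible factors, and Lox, Serpinh1 and Plod2 of TGF-beta signalling. Of 18 other HIF-responsive genes, 1 rose and 4 fell after unloading and 1 rose and 2 fell in diabetes in Notch2-mKO muscle. In WT muscle 3 rose and 3 fell after unloading, and 4 rose and 2 fell in diabetes. With the trend removed, 2 of these 18 fell and none rose in each treatment in Notch2-mKO muscle. In WT muscle 2 then rose and 2 fell after unloading, and 4 rose and 1 fell in diabetes. Of 13 tested TGF-beta-responsive genes, 1 rose after unloading and none was called in diabetes in Notch2-mKO muscle. In WT muscle 3 rose and 4 fell after unloading, and 3 rose and 2 fell in diabetes. With the trend removed, the TGF-beta counts in Notch2-mKO muscle were the same. In WT muscle 2 then rose and 2 fell after unloading, and 3 rose and 1 fell in diabetes. Both lists thus held calls in both directions in WT muscle, where the HIF counts were near the shares over all genes. In Notch2-mKO muscle the HIF-responsive genes that fell, 4 of 18 after unloading and 2 of 18 in diabetes, were above those shares. The part of either pathway in the levels of the enzyme genes was not tested.

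Markers of the cells that make collagen did not move alike. Over all genes, 3.20% were called lower after unloading and 2.54% in diabetes in Notch2-mKO muscle, and 16.3% and 15.5% in WT muscle. Of 10 tenocyte markers, such as Tnmd and Fmod, 6 fell after unloading and 7 in diabetes in Notch2-mKO muscle, and 7 in each treatment in WT muscle. Their summed level was 79.7 to 151 CPM in Notch2-mKO-Unloading and 111 to 144 CPM in Notch2-mKO-Diabetes, against 289 to 409 CPM in Notch2-mKO-Control. It was 87.0 to 156 CPM in WT-Unloading and 102 to 161 CPM in WT-Diabetes, against 303 to 349 CPM in WT-Control. Treated libraries thus lay below the controls of their genotype, as for the summed enzyme genes. The median log2 fold change of the tenocyte markers was -1.40 and -1.49 in Notch2-mKO and -1.62 and -1.46 in WT muscle, unloading first. Those of the enzyme genes were -0.47 and -0.41, and -0.79 and -0.70, and Lox rose in WT muscle. Of 16 fibroblast markers, such as Pdgfra and Dcn, 2 fell after unloading and 1 fell and 1 rose in diabetes in Notch2-mKO muscle. In WT muscle 6 fell and 1 rose after unloading, and 3 fell and 3 rose in diabetes. With the GC and length trend removed, 2 fibroblast markers fell and 1 rose in unloaded WT muscle, near the share over all genes. In diabetic WT muscle 2 then fell and 2 rose. In Notch2-mKO muscle 1 then fell after unloading, and 1 fell and 1 rose in diabetes. Their summed level was 846 to 1366 CPM in Notch2-mKO-Unloading and 1259 to 1657 CPM in Notch2-mKO-Diabetes, against 944 to 1385 CPM in Notch2-mKO-Control. It was 1081 to 1499 CPM in WT-Unloading and 1288 to 1805 CPM in WT-Diabetes, against 882 to 1315 CPM in WT-Control, with overlap in every comparison. All 10 tenocyte and all 16 fibroblast markers were above 0 in every library. Of 7 cartilage and bone markers, 6 were at 0 in at least 1 library and the sum reached at most 1.89 CPM. The part of the tenocyte marker decline in the lower levels of the enzyme genes was not tested.

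Other markers changed less evenly, and their counts stand beside 3.20% of all genes called lower and 4.11% higher after unloading, and 2.54% and 3.05% in diabetes, in Notch2-mKO muscle. In WT muscle 16.3% were called lower and 18.4% higher after unloading, and 15.5% and 17.8% in diabetes, so a count such as 2 of 12 is near that share. With the GC and length trend removed, 10.8% were lower and 15.8% higher in unloaded WT muscle, and 9.73% and 14.2% in diabetic WT muscle. In Notch2-mKO muscle 3.33% were then lower and 5.07% higher after unloading, and 2.04% and 2.52% in diabetes. Of 12 muscle fibre markers, 1 fell in each treatment in Notch2-mKO muscle, and 2 fell after unloading and 5 in diabetes in WT muscle. After removal of the trend, 1 of them fell and 2 rose in each treatment in WT muscle. In Notch2-mKO muscle 1 then fell and 1 rose after unloading, and 1 fell in diabetes. Of 10 endothelial markers, 3 fell in unloaded and none in diabetic Notch2-mKO muscle, and 3 in each treatment in WT muscle. Without the trend these counts were the same except in diabetic WT muscle, where 1 fell and 1 rose. Of 9 tested pericyte and smooth muscle markers, none was called in unloaded and 3 fell in diabetic Notch2-mKO muscle. In WT muscle 4 of them fell and 1 rose after unloading, and 3 fell and 2 rose in diabetes. After removal of the trend, 1 fell and 2 rose in unloaded WT muscle and 3 fell and 2 rose in diabetic WT muscle. In diabetic Notch2-mKO muscle 2 then fell, and none was called in unloaded Notch2-mKO muscle. Of 10 macrophage and leukocyte markers, none was called in Notch2-mKO muscle, 4 fell in unloaded WT muscle, and 1 fell and 2 rose in diabetic WT muscle. Without the trend, 2 fell in unloaded and 1 rose in diabetic WT muscle, and none was called in Notch2-mKO muscle. Of 6 satellite cell and 6 adipocyte markers, 1 of each list rose in each treatment in WT muscle and none was called in Notch2-mKO muscle. After removal of the trend, 2 satellite cell markers and no adipocyte marker rose in each treatment in WT muscle.

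For each gene the 3 genes with the most similar pattern were sought among 9046 genes averaging 2 CPM or more, by the root mean square difference of centred log2 levels over all 24 libraries. Serpinh1 lay nearest to Pcolce (0.23), itself 1 of the 10, then to Ret (0.24) and Col6a3 (0.26), a chain of type VI collagen. Pcolce lay nearest to Rcn3 (0.17), Mrc2 (0.20) and Ccnd1 (0.22), and Loxl2 to Sparc (0.23), a collagen-binding matrix protein, and to Col4a2 (0.24) and Col4a1 (0.25). P4ha1 lay nearest to Stip1 (0.11) and Wnt9a (0.13), P4ha2 to Atp5d, Stip1 (0.15 each) and C2cd2l (0.16), and Plod1 to Fitm2 (0.11), Myo1c (0.12) and Shisa5 (0.13). Bmp1 lay nearest to Clec3b (0.18), Esrra and Mtfp1 (0.19 each), Lox to Psip1 (0.22), Abcb1b and Ddx3x (0.23 each), and Loxl1 to Siah2 (0.21), Mgmt (0.22) and Ints7 (0.23). Plod2 was below the level limit. These 24 points share the control groups and the GC trend, and over the 6 group means at most 1 of the 3 nearest genes was the same for any gene.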

How the data were processed

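Total RNA of gastrocnemius was sequenced in 24 libraries. The authors deposited 4 tables, each with estimated counts per gene model and log2 values; the log2 values are scaled per library and set against the mean of the table's controls, per the file headers and the values. Genes carry RefSeq names per the file headers, and per the submitters' processing notes the build is mm10. No aligner or counter is given in the sources used here. The 8 control columns that stand in 2 tables each were identical and were used once.

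Estimated counts, 33112459 to 56369917 a library, were rounded, filtered with filterByExpr, scaled by TMM and tested over 11 comparisons in 1 quasi-likelihood fit of all 6 groups (edgeR 4.0.16, R 4.3.3), with Benjamini-Hochberg adjustment over 13048 genes. The common biological coefficient of variation was 20.0%. Alternatives were DESeq2 1.42.0, limma 3.58.1 on the authors' log2 values, other scalings, no filter, a fit of only the groups compared, a replicate block, removal of the dependence of each library on transcript GC content and length (splines, 4 degrees of freedom), and leaving out each library. The fit was tested on simulated data. Likeness of pattern used log2(CPM + 0.5). Tables were made with Python 3.11.15 and pandas 2.3.3.

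The 10 genes are all described, all but Plod2 with the 3 nearest genes (clone and model names passed over; 1 of those of P4ha1 is not reported here). Of the wider synthesis list and the chain lists, those named are among the 3 called genes with the smallest p in each direction of a treatment comparison, besides Col1a1, Col1a2 and Col3a1. The members, lists and tests were chosen with earlier results of these data known. Same-numbered libraries did not vary together, so none were paired.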

Additional observations from a re-analysis of the deposited data

Results flagged for a closer look

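In 5 of 60 sets of 4 libraries (10 genes in 6 groups) 1 library stood far from the other 3 by Dixon's criterion, and chance gives about 1 set in 20. Serpinh1 was lowest at 23.4 CPM and Loxl1 at 10.6 CPM in replicate 4 of Notch2-mKO-Diabetes, the same library. P4ha2 was lowest at 10.8 CPM in replicate 1 of Notch2-mKO-Unloading. Plod1 was lowest at 23.3 CPM in replicate 2 of WT-Unloading, and Plod2 was highest at 1.05 CPM in replicate 3 of WT-Unloading.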

How the results depend on the processing

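The call counts in WT muscle were stable: leaving out each library gave 8 to 9 of the 10 genes called after unloading and 7 to 9 in diabetes, and RLE or upper quartile scaling, no filter, the replicate block, only the groups compared and DESeq2 gave 9 each. Removing the GC and length trend gave 7 each and limma 6 each. In Notch2-mKO muscle the counts were weak: leaving out each library gave 1 to 3 called in each treatment. After unloading, only the groups compared gave 1, DESeq2 5 and limma on the authors' log2 values 0, against 3 in the reported fit. In diabetes, only the groups compared gave 6, against 3. With the replicate block 2 were called in each Notch2-mKO comparison, where P4ha1 after unloading (adjusted p = 0.0589) and P4ha2 in diabetes (adjusted p = 0.0508) were lost. Same-numbered libraries correlated at -0.19 to 0.29 and not every library matched its own number best.

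Between diabetes and unloading, removal of the trend gave 1 called gene, Loxl1, in each genotype, with or without the block, and DESeq2 gave 1 in Notch2-mKO muscle. Genotype comparisons and interactions gave 0 of the 10 in every fit run. Plod2, never called, changed sign: after unloading it was -0.068 in Notch2-mKO muscle with the trend removed and -0.069 with the block added, and leaving out libraries gave -0.17 to 0.34 there and -0.63 to 0.19 in WT muscle. Limma gave no value for Plod2, which lies at the floor of the authors' log2 values. Causes of these differences were not tested. Over all genes, the Notch2-mKO unloading comparison called 954 in the reported fit, 331 with only the groups compared and 1 in limma. The diabetes comparison called 730, 1592 and 1252. Leaving out 1 library gave 411 to 1127 after unloading, lowest without Notch2-mKO-Control replicate 2 and highest without Notch2-mKO-Unloading replicate 3. It gave 153 to 995 in diabetes, lowest without Notch2-mKO-Control replicate 4 and highest without Notch2-mKO-Control replicate 1.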
